A study of Homo sapiens with 8 samples.

Results

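The genes described here encode the classical axon guidance cues and their receptors. They were taken from the array annotation by symbol: every probe set assigned to a single gene of the semaphorins, plexins, ephrins, Slits, Robos or UNC5 receptors, the numbered netrins and Eph receptors, NRP1, NRP2, DCC and the 3 FLRT genes. The rule found 98 probe sets of 61 genes, of 22215 probe sets and 11963 genes in all. One of the 61, UNC50, shares only the letters of its symbol and encodes a membrane protein of the Golgi and inner nuclear envelope. It is left out below, and its signal was 10.46 in knockdown and 10.25 in scramble (limma adjusted p = 0.36). The remaining 60 genes, with 97 probe sets, were 18 semaphorins, 10 plexins and neuropilins, 8 ephrins, 10 Eph receptors, 6 Slits and Robos, 5 genes of the netrin, DCC and UNC5 group, and 3 FLRTs. Each gene is given on its brightest probe set, the one with the highest mean over the 8 arrays. A single probe set was present for 31 genes, and 29 had several, at most 5.

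RNA was measured on 8 Affymetrix arrays of SH-SY5Y, an established human neuroblastoma line with features of sympathetic neuroblasts. The cells had been transfected with a scramble control or, stably, with RNAi against DJ-1, which is encoded by PARK7. Clones B and G were the knockdown clones, and clones H and M the scramble clones. Each clone was put on 2 arrays, numbered replicates 1 and 2 and written below as B1, B2 and so on. Each condition therefore rests on 2 clones of 1 cell line, and untransfected cells were not analysed here. Nothing in the labels says that the 2 arrays of a clone came from separate cultures, so the spread between them may be partly or wholly technical. The p-values of knockdown against scramble rest on that spread, mixed with differences between clones of a condition and between replicate numbers. The question of the design was how DJ-1-silenced cells differ from control cells.

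Growing axons are steered by secreted and membrane-bound cues that attract or repel the growth cone. Semaphorins act through plexins, with neuropilins as co-receptors for most secreted class 3 semaphorins. Membrane-attached ephrins act through Eph receptor tyrosine kinases, Slits through Robos, and netrins through DCC and UNC5 receptors. FLRTs are leucine-rich repeat membrane proteins that bind UNC5 receptors and latrophilins and serve in adhesion as well as repulsion. Many of these genes also act in the migration of the neural crest, from which the sympathetic lineage and neuroblastoma derive.

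The 2 members with the largest called differences were PLXNC1 and FLRT3, and the sequences around their annotated starts are shown to compare the 2 genes. Each run is taken from RefSeq on build GRCh38.p14 and covers 250 bases before to 50 after a transcript start, 5′ to 3′ on the strand of the gene. Capitals mark GGGCGG, the core letters of a GC box. PLXNC1 has 2 annotated starts on the plus strand, at chr12:94148327-94148626 and chr12:94262369-94262668. FLRT3 lies on the minus strand at chr20:14337563-14337862.
PLXNC1, first start: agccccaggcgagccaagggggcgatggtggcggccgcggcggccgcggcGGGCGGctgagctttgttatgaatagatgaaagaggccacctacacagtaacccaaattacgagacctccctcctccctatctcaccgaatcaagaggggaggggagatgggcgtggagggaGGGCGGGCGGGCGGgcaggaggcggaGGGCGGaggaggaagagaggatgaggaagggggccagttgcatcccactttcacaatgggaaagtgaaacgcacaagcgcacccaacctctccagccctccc
PLXNC1, second start: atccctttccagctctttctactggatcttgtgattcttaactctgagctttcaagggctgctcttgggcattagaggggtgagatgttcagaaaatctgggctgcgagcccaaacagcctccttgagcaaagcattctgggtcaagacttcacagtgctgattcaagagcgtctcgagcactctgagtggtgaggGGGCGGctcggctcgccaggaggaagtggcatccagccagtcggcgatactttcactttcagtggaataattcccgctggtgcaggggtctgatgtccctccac
FLRT3: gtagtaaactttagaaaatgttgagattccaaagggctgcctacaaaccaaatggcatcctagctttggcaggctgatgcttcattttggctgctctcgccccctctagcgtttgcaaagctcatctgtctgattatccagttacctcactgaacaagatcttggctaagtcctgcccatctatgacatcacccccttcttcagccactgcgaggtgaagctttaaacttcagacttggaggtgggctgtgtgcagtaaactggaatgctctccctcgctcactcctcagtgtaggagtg
The first PLXNC1 window held 20 CpG and 5 GGGCGG matches, counting overlapping ones, at 64% G and C. The second held 9 CpG and 1 match at 53.7%, and the FLRT3 window 4 CpG and 0 matches at 48.7%. The search covered both strands and 4 other motifs, none of which was in these 3 windows. Among 35093 windows of the same length over all genes, GGGCGG was present in 45%. The other motifs were the TATA box letters TATAAA (11.5% of windows), the CCAAT box letters CCAAT (34.6%), the E-box CACGTG (7.26%) and the cAMP response element TGACGTCA (1.85%). Of the 60 members, 52 had at least 1 promoter entry, 79 in all, and GGGCGG was present in 58 of the 79 (73.4%). The median CpG number was 21 in the members' windows and 14 over all windows. The arrays do not report which start a transcript used.

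The signals of PARK7 separated the conditions, at 10.05 to 10.45 on the 4 knockdown arrays and 12.95 to 13.14 on the 4 scramble arrays, a difference of -2.90 (SE 0.09). All signals are log2 values, so a difference of 1 is a doubling, and differences are knockdown minus scramble unless another order is given. Array medians lay between 8.03 and 8.08, and the arrays of a clone correlated at 0.9896 or more. Markers of adrenergic (sympathetic) neuroblastoma were high, with 8 of the 9 measured above the median of all probe sets, and 8 of 15 mesenchymal markers were above it too. Of 8 Schwann and melanocytic markers 1 was above that median, and of 5 endothelial, 7 leukocyte and 6 epithelial markers none was. The 15 mesenchymal markers had a mean signal of 7.48 to 8.21 on the knockdown arrays, 8.04 and 8.52 on those of clone H, and 9.17 and 9.24 on those of clone M. RMA signals have no true zero, and no detection calls were used, so a low signal cannot be told apart from background.

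PLXNC1 and PLXNA1, both plexins, and FLRT3 rose in the knockdown clones, and no semaphorin, ephrin, Eph receptor, Slit, Robo, netrin or UNC5 receptor passed the test. In all, 3 members were higher in knockdown at a limma adjusted p under 0.05, and 0 members were lower. Over all 22215 probe sets, 1.53% were called higher and 1.43% lower. At an unadjusted p under 0.05, 12 of the 60 members (20%) passed, 4 with a positive and 8 with a negative difference, and so did 19.9% of all probe sets, so that count was at the background. Among the 60 members 22 had a positive and 38 a negative difference, with a median of -0.07, while over all probe sets the median was 0.0029 and 50.7% were positive. Differences were small for most members: 44 of 60 (73.3%) lay within 0.25 of 0, against 79.1% of all probe sets. Only 3 of the 60 differed by 1 or more in either direction: PLXNC1, FLRT3 and SEMA3C. RNA came from whole cultures, so a change in the share of cells of a kind and a change in RNA per cell cannot be told apart. With the replicate number as a block in the fit, PLXNC1 and PLXNA1 were called higher and SEMA3C and EFNB2 lower, against 1.74% and 1.61% of all probe sets.

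**Figure D1:**
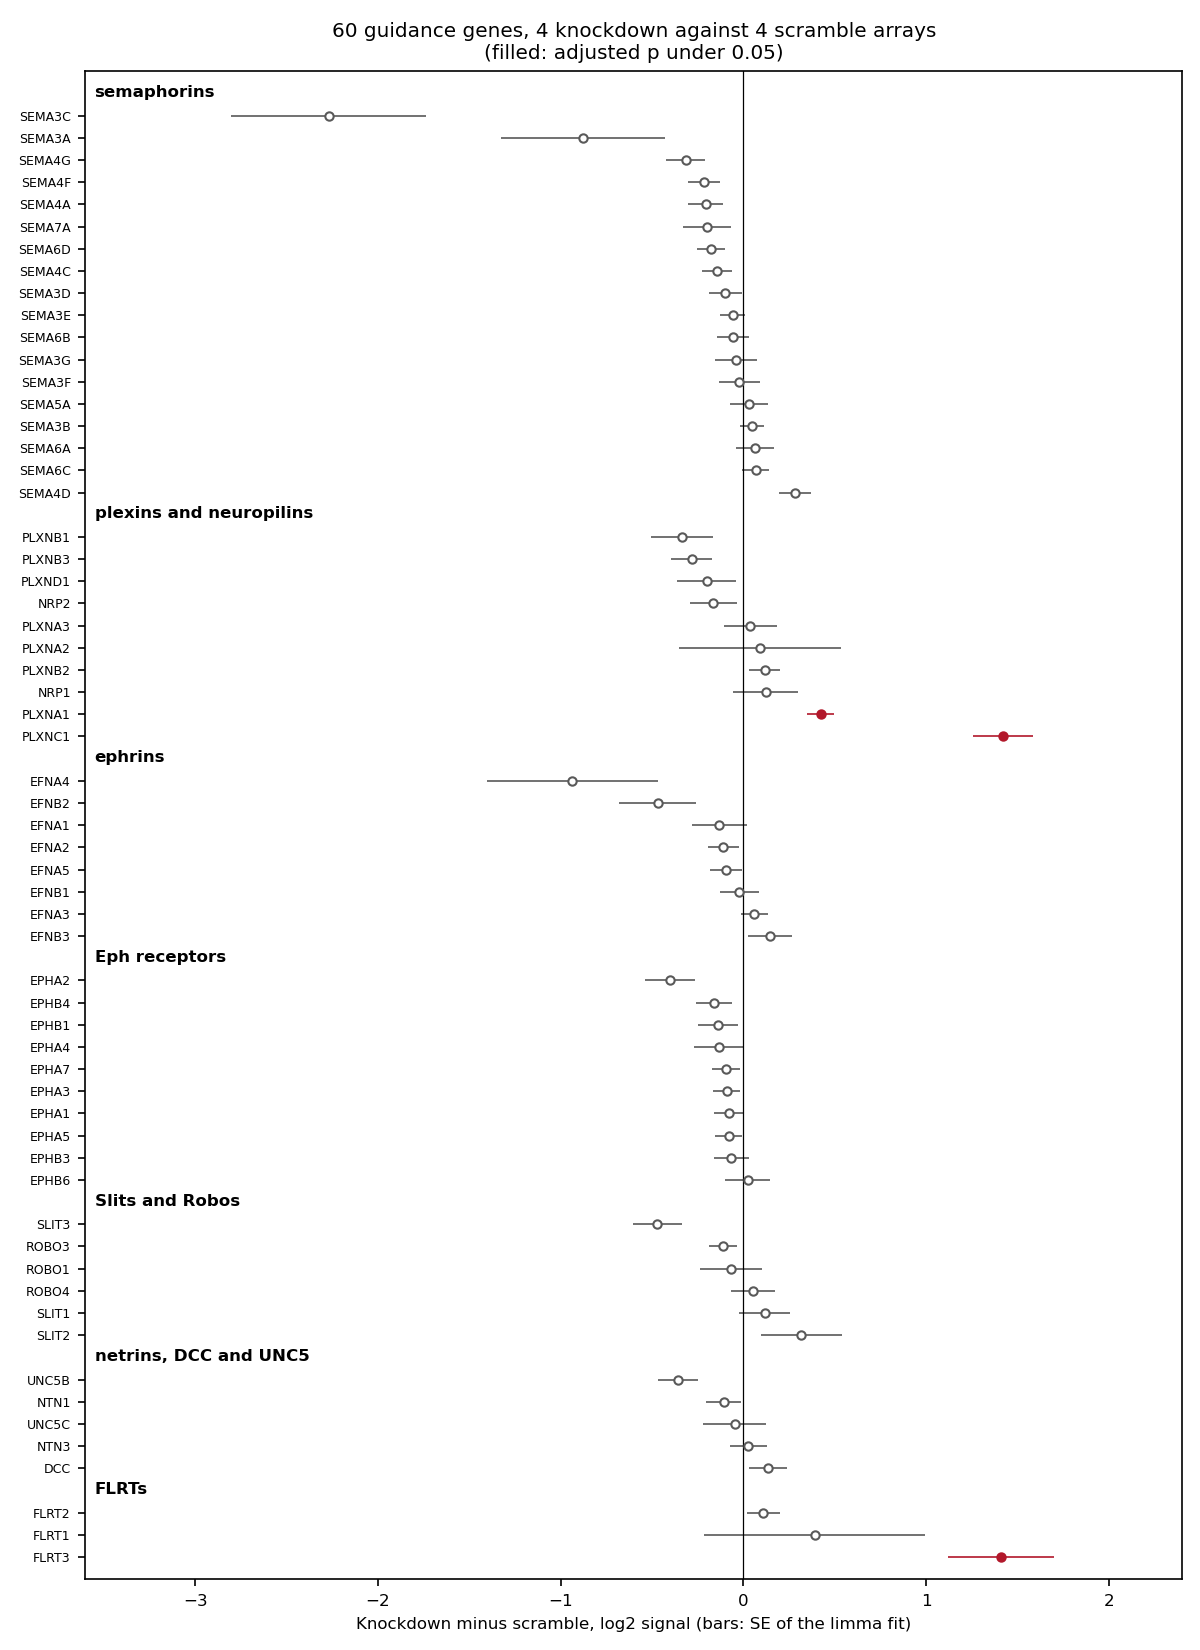
Difference in log2 signal, knockdown minus scramble, for each of the 60 guidance genes on its brightest probe set, ordered within role groups. Points are limma estimates from 4 against 4 arrays and bars are their standard errors. PLXNC1 (1.42), FLRT3 (1.41) and SEMA3C (-2.27) stand farthest from 0.

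The condition was also read from overlap alone. On 4 members all knockdown arrays were above all scramble arrays (PLXNC1, FLRT3, PLXNA1 and SEMA4D), and on 4 all were below (SEMA4F, SEMA4G, EPHB4 and UNC5B). The same holds for 6.68% of all probe sets in the first direction and 5.03% in the second, so the members' counts, each 4 of 60, were near the background.

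Among receptors, the 10 plexins and neuropilins had a median difference of 0.06, with 6 positive and 4 negative, and 2 were called. PLXNC1, the receptor of the membrane-anchored semaphorin SEMA7A, had signals of 8.29 and 8.32 on B1 and B2, 8.05 and 8.22 on G1 and G2, 6.33 and 7.00 on H1 and H2, and 6.67 and 7.19 on M1 and M2. The 4 knockdown arrays lay close together and all above the scramble arrays, whose replicate 1 was lower than replicate 2 in both clones. The mean was 8.22 ± 0.12 (SD, n = 4) in knockdown and 6.80 ± 0.38 (SD, n = 4) in scramble, a 2.68-fold rise (log2 difference 1.42, SE 0.16, limma adjusted p = 0.0042). A second PLXNC1 probe set rose by 0.94 (limma adjusted p = 0.0083), and the remaining one differed by 0.63 (adjusted p = 0.058). The difference on the brightest probe set was 1.67 within replicate 1 and 1.18 within replicate 2. The call was lost without clone B (adjusted p = 0.18), without clone G (adjusted p = 0.068) and when the 4 clone means replaced the arrays (adjusted p = 0.066).

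PLXNA1, a plexin that transmits class 3 semaphorin signals together with a neuropilin, had signals of 11.03 and 10.93 on the arrays of clone B, 10.81 and 10.97 on those of clone G, 10.44 and 10.65 on those of clone H, and 10.47 and 10.50 on those of clone M. The conditions did not overlap. The rise was small, 1.34-fold (log2 difference 0.42, SE 0.07, limma adjusted p = 0.021). The other PLXNA1 probe set had a difference of 0.02 (adjusted p = 0.93), and the mean of the 2 gave 0.22 (adjusted p = 0.11). The call was also lost without array B1 (adjusted p = 0.065), B2 (0.16) or G2 (0.068), without clone B (0.39) or G (0.18), and with clone means (0.11).

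The other plexins and neuropilins differed by -0.34 to 0.12, and none was called. The negative values included PLXNB1 (-0.34), a receptor of SEMA4D, PLXNB3 (-0.28) and PLXND1 (-0.20). NRP1, a co-receptor of class 3 semaphorins and of VEGF, differed by 0.12 (limma adjusted p = 0.74) on its brightest probe set. Another NRP1 probe set, singled out after its values were seen, read 7.08 and 6.25 on clone B, 6.36 and 5.73 on clone G, 4.39 and 4.65 on clone H, and 6.13 and 5.38 on clone M. Its difference was 1.22 (SE 0.38, adjusted p = 0.12), with clone H lowest and G2 below M1. NRP2 differed by -0.16.

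**Figure D2:**
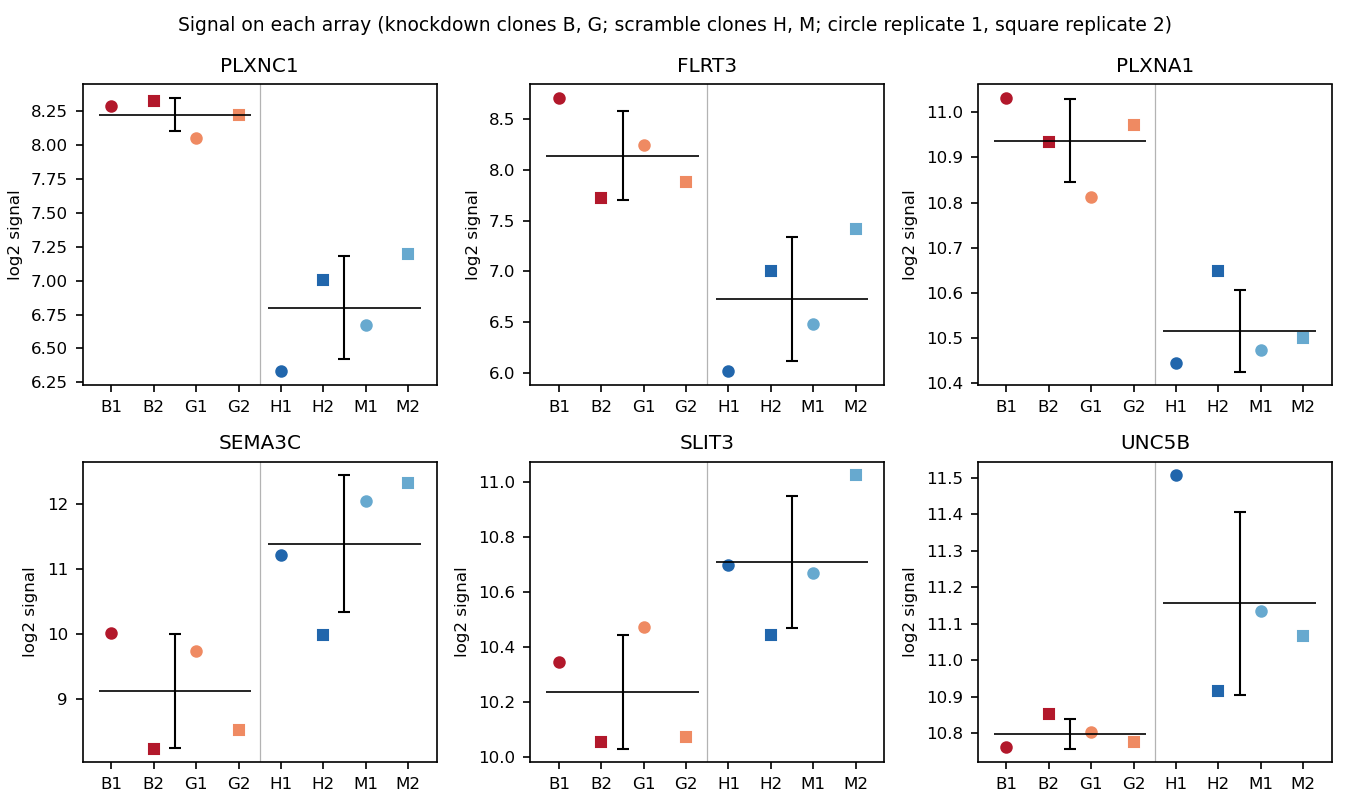
Log2 signal of PLXNC1, FLRT3, PLXNA1, SEMA3C, SLIT3 and UNC5B on each of the 8 arrays, with the mean and SD of each condition (n = 4); each panel has its own axis range, which does not start at 0. The knockdown arrays lie above all scramble arrays for PLXNC1, FLRT3 and PLXNA1, while for SEMA3C array B1 (10.01) lies just above H2 (9.99).

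Among ligands, the 18 semaphorins had 13 negative and 5 positive differences, with a median of -0.08. SEMA3C, a secreted class 3 semaphorin that binds neuropilins, had signals of 10.01 and 8.23 on B1 and B2, 9.74 and 8.52 on G1 and G2, 11.21 and 9.99 on H1 and H2, and 12.05 and 12.33 on M1 and M2. Clone M was highest and replicate 2 was below replicate 1 in the other 3 clones; B1 overlapped H2. The difference of -2.27 (SE 0.53) had the greatest size among the 60 members and did not pass (limma adjusted p = 0.057). It passed with the replicate block (adjusted p = 0.046), with dim probe sets filtered out (0.039) and without H1 (0.036) or H2 (0.0027). With clone means it did not pass (0.14). The fits without H1 and without H2 used negative correlations within clones, -0.283 and -0.352, which narrow the standard error. The difference was -3.07 without clone H and -1.48 without clone M. A second SEMA3C probe set had a difference of -2.07 (adjusted p = 0.097).

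SEMA3A, the class 3 semaphorin known for collapsing sensory and sympathetic growth cones, read 5.86 and 6.14 on clone B, 5.73 and 6.28 on clone G, 6.12 and 5.84 on clone H, and 7.43 and 8.14 on clone M. Only the 2 arrays of clone M were above 7, and clone H lay within the knockdown range. Its difference of -0.88 was not called (limma adjusted p = 0.31). SEMA7A, the ligand of PLXNC1, read 6.55 and 7.09 on clone B, 7.04 and 7.14 on clone G, 7.04 and 7.06 on clone H, and 7.28 and 7.23 on clone M. Its conditions overlapped, and its difference was -0.20 (limma adjusted p = 0.44).

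Of the transmembrane class 4 semaphorins, SEMA4D, a plexin B ligand, read 8.76 to 8.87 in knockdown and 8.39 to 8.74 in scramble, a difference of 0.28 (limma adjusted p = 0.12). SEMA4F (-0.22) and SEMA4G (-0.32) were below in every knockdown array, without being called. SEMA4C, a plexin B2 ligand, read 10.87 and 10.63 on clone B, 10.63 and 10.69 on clone G, 10.75 and 10.76 on clone H, and 10.90 and 10.99 on clone M. B1 lay among the scramble arrays, and the difference was -0.15 (limma adjusted p = 0.36). The remaining 11 semaphorins differed by -0.21 to 0.07.

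All 3 FLRTs had positive differences, and 1 was called. FLRT3 had signals of 8.71 and 7.72 on B1 and B2, 8.25 and 7.88 on G1 and G2, 6.01 and 7.01 on H1 and H2, and 6.48 and 7.42 on M1 and M2. The conditions did not overlap, but they came closer in replicate 2, where knockdown was lower and scramble higher than in replicate 1. The mean was 8.14 ± 0.44 (SD, n = 4) in knockdown and 6.73 ± 0.61 (SD, n = 4) in scramble, a 2.66-fold rise (log2 difference 1.41, SE 0.29, limma adjusted p = 0.037). Within replicate 1 the difference was 2.23 and within replicate 2 it was 0.59; the test of that change gave an unadjusted p of 2.1e-04 and a limma adjusted p of 0.53 over all probe sets. The call was lost with the replicate block (adjusted p = 0.083), without a clone block (0.052), without M1 (0.057) and without any 1 of the 4 knockdown arrays (0.075 to 0.15). It was lost as well with clone means (0.073), without clone B (0.38) and without clone G (0.26).

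FLRT1 read 8.13 and 9.63 on B1 and B2, 8.35 and 9.54 on G1 and G2, 7.14 and 9.89 on H1 and H2, and 7.48 and 9.58 on M1 and M2. Its values followed the replicate number in all 4 clones, and the difference of 0.39 was not called (limma adjusted p = 0.75), at 0.93 within replicate 1 and -0.15 within replicate 2. FLRT2 differed by 0.11 (adjusted p = 0.53).

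Of the partners of FLRTs, the latrophilins are adhesion G protein-coupled receptors of synapses. ADGRL3, the gene of latrophilin 3, read 8.71 and 8.01 on clone B, 8.16 and 8.09 on clone G, 6.76 and 6.97 on clone H, and 6.93 and 6.86 on clone M. Every knockdown array was above every scramble array, and the difference was 1.36 (SE 0.14, limma adjusted p = 0.0026); a second probe set rose by 1.93 (adjusted p = 0.0012). ADGRL1 rose by 0.54 (SE 0.10, limma adjusted p = 0.024). Its other probe sets differed by 0.49 (adjusted p = 0.021) and by 0.51 (0.096), and on the latter the conditions overlapped. The ADGRL3 call was kept without any 1 array and lost with clone means (adjusted p = 0.066) or without clone G (0.054). That of ADGRL1 was lost without any 1 of the 4 knockdown arrays (0.065 to 0.14) and with clone means (0.15). ADGRL2, the other latrophilin gene measured, read 11.75 to 12.12 on the 8 arrays and differed by 0.01 (limma adjusted p = 0.94). UNC5B, a receptor that binds both netrins and FLRTs, read 10.76 and 10.85 on clone B, 10.80 and 10.77 on clone G, 11.51 and 10.91 on clone H, and 11.13 and 11.07 on clone M. The knockdown arrays were tightly grouped and all below the scramble arrays, of which H1 was highest. Its difference of -0.36 did not pass (SE 0.11, limma adjusted p = 0.12), nor did that of its other probe set (-0.32, adjusted p = 0.18). The others of its group, NTN1, NTN3, DCC and UNC5C, differed by -0.11 to 0.14.

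The ephrins and Eph receptors leaned to negative values: 6 of 8 ephrins and 9 of 10 Eph receptors, with medians of -0.10 and -0.09. None was called. Over all probe sets 49.3% of differences were negative. Of the ephrins 5 were above the median signal of all probe sets, and of the Eph receptors only 1. Of the marker lists, 15 of 15 mesenchymal, 8 of 8 Schwann and melanocytic, 6 of 7 leukocyte, 4 of 5 endothelial and 4 of 6 epithelial markers were negative. Of the 9 adrenergic markers 0 were negative. Whether the sign of a difference goes with the level of signal was not tested. EFNB2, a transmembrane ephrin that signals in both directions on contact, read 10.65 and 11.16 on B1 and B2, 10.63 and 11.30 on G1 and G2, 11.06 and 11.95 on H1 and H2, and 11.08 and 11.52 on M1 and M2. Replicate 2 was above replicate 1 in each clone, and within each replicate number both knockdown arrays were below both scramble arrays. Its difference of -0.47 had a limma adjusted p of 0.26, and of 0.046 with the replicate block. EFNA4, a lipid-anchored ephrin, differed by -0.94 (adjusted p = 0.30), with signals of 8.13 and 6.95 on clone B, 7.72 and 6.88 on clone G, 7.70 and 7.29 on clone H, and 9.24 and 9.19 on clone M. As with SEMA3A, clone M stood above and clone H lay within the knockdown range.

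EPHA2, a receptor tyrosine kinase of ephrin-A ligands, read 7.78 and 7.53 on clone B, 7.83 and 7.74 on clone G, 8.04 and 7.78 on clone H, and 8.21 and 8.45 on clone M. H2 overlapped the knockdown arrays, and the difference was -0.40 (limma adjusted p = 0.15). EPHB4, a receptor of EFNB2, read 8.09 and 8.06 on clone B, 8.07 and 8.05 on clone G, 8.10 and 8.11 on clone H, and 8.20 and 8.51 on clone M. The groups did not overlap, but H1 lay only just above B1, and the difference was -0.16 (limma adjusted p = 0.40). Its other probe set differed by -0.57 (adjusted p = 0.25), and the mean of the 2 by -0.37 (0.24). The other 8 Eph receptors differed by -0.14 to 0.02, and the other 6 ephrins by -0.13 to 0.15.

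Slits and Robos were split, with 3 positive and 3 negative differences and a median of -0.01. SLIT3, a secreted Robo ligand, read 10.35 and 10.05 on clone B, 10.47 and 10.07 on clone G, 10.70 and 10.44 on clone H, and 10.67 and 11.02 on clone M. G1 lay above H2, and the other knockdown arrays were below all scramble arrays. Its difference of -0.47 was not called (SE 0.13, limma adjusted p = 0.096), and its other probe sets had -0.14 and -0.30. SLIT2 differed by 0.32 (adjusted p = 0.45), and SLIT1, ROBO1, ROBO3 and ROBO4 by -0.11 to 0.12.

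**Figure D3:**
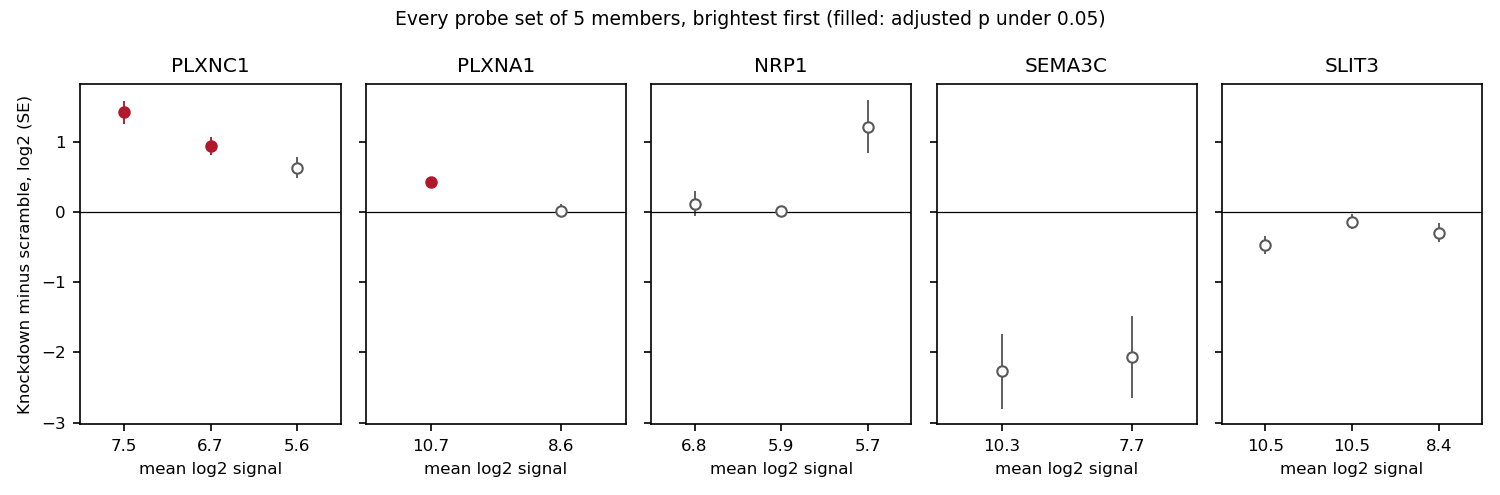
Difference in log2 signal, knockdown minus scramble, for every probe set of PLXNC1, PLXNA1, NRP1, SEMA3C and SLIT3, with limma standard errors (4 against 4 arrays). The probe sets of PLXNC1 and SEMA3C have the same sign, whereas those of PLXNA1 lie at 0.42 and 0.02.

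Between the scramble clones H and M, 1 member was called, SEMA3A, with a difference, H minus M, of -1.80 (SE 0.27, limma adjusted p = 0.032). Its signal was too low to be kept by the filter on dim probe sets. By the same rule 1.05% of all probe sets were called. At an unadjusted p under 0.05, 11 of the 60 members (18.3%) passed, against 13.2% of all probe sets. EFNA4 (-1.72, adjusted p = 0.12) and SEMA3C (-1.59, adjusted p = 0.36) had values of like size that were not called. These are the 3 members with the most negative knockdown differences. Of the 15 mesenchymal markers, 1 was called in knockdown against scramble, CDH11 (-2.12), against 1.43% of all probe sets called lower. Between H and M, 1 of the 15 was called, YAP1 (-1.63, limma adjusted p = 0.0016). YAP1 was dim, at 5.68 and 5.83 on clone M and 4.01 to 4.32 on the other clones. All 15 knockdown differences were negative, from -2.12 to -0.04 with a median of -0.90, and H minus M was negative for 12 and positive for 3, with a median of -1.08. The part of these marker values in the values of SEMA3C, SEMA3A and EFNA4 was not tested. Between the knockdown clones B and G, 0 members were called by limma, against 0.0045% of all probe sets, 1 probe set. At an unadjusted limma p under 0.05, 0 members passed, and 208 of all probe sets. The fits between clones held no term for the replicate number, so shifts with that number entered their error. For PLXNA2, with a replicate difference of -1.44, the SE of B minus G was 0.75. The lack of calls between clones therefore does not show that they were alike.

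Between the 2 replicate numbers, 6 members were called. Comparing replicate 2 with replicate 1 within clones, 3 members were higher, against 4.6% of all probe sets, and 3 were lower, against 8.76%. FLRT1 rose by 1.88 (SE 0.22, limma adjusted p = 0.0033), EFNB2 by 0.63 (SE 0.08, adjusted p = 0.0038) and PLXNB1 by 0.44 (SE 0.10, adjusted p = 0.026), each in 4 of 4 clones. PLXNA2, another class A plexin, read 10.64, 10.54, 10.53 and 10.38 in replicate 1 of clones B, G, H and M, and 9.10, 9.12, 9.15 and 8.98 in replicate 2. Its fall (-1.44, SE 0.06, limma adjusted p = 0.0002) was alike in all clones, and its knockdown difference was 0.09. ROBO1, the main Slit receptor of many neurons, fell (-0.45, adjusted p = 0.029), as did EFNA4 (-0.62, adjusted p = 0.044), in all 4 clones. What the 2 numbers stand for is not given in the labels. No member and no probe set at all was called for a knockdown difference that changed with the replicate number (limma, adjusted p under 0.05), while 9 of the 60 members (15%) and 1901 probe sets (8.56%) had an unadjusted p under 0.05.

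**Figure D4:**
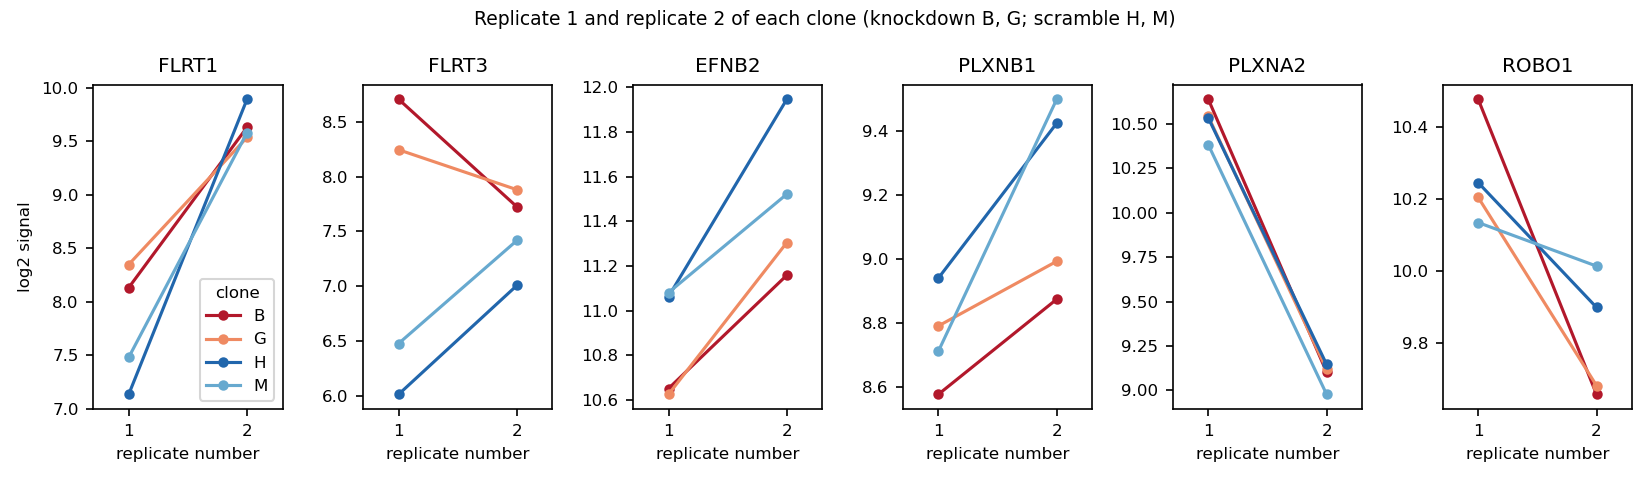
Log2 signal of FLRT1, FLRT3, EFNB2, PLXNB1, PLXNA2 and ROBO1 in replicate 1 and replicate 2, with a line joining the 2 arrays of each clone. PLXNA2 falls in all 4 clones by a similar amount, FLRT1 rises in all 4, and the FLRT3 lines of the knockdown and scramble clones run toward each other.

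Other genes of guidance were read from 2 lists. Of 25 measured ligands and receptors outside the families above, 2 were called higher, the latrophilin genes ADGRL3 and ADGRL1, and 0 lower. Over all probe sets 1.53% were called higher and 1.43% lower. At an unadjusted limma p under 0.05, 7 of the 25 (28%) passed, against 19.9% of all probe sets. The median difference of the 25 was -0.0046. With the replicate block the count called lower was 1, against 1.61% of all probe sets. This was NRCAM, an adhesion molecule of axons, whose difference of -0.55 had a limma adjusted p of 0.20, and of 0.028 with the block. The other uncalled differences of 0.5 or more in size were those of VEGFA (0.98), a neuropilin ligand, NCAM1 (0.51) and NEO1 (-0.50), a netrin receptor related to DCC. The receptor phosphatase PTPRF differed by 0.30, also uncalled. Of 46 intracellular effectors of guidance receptors, 0 were called higher and 1 lower, with a median of -0.03, against the same 1.53% and 1.43%. At an unadjusted limma p under 0.05, 13 of the 46 (28.3%) passed, against the same 19.9%. DPYSL3, one of the collapsin response mediator proteins, named for their part in semaphorin signalling, fell by 1.63 (SE 0.35, limma adjusted p = 0.042), and its other probe set had -1.95 (adjusted p = 0.076). That call was lost without any 1 of the knockdown arrays (adjusted p = 0.082 to 0.18), without M1 (0.076) and with clone means (0.13). It was kept with the replicate block (0.019). DPYSL3 also rose with the replicate number in every clone (replicate 2 minus replicate 1 of 0.76, limma adjusted p = 0.0030). Between the scramble clones, H minus M was -1.07 for DPYSL3 (limma adjusted p = 0.33) and -1.82 on its other probe set (0.14). In knockdown against scramble, KALRN (-0.53), LIMK2 (-0.34) and DOCK1 (-0.35) had adjusted p-values of 0.074 to 0.098.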

How the data were processed

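Total RNA of 8 samples was hybridised to 1 array each. The deposited table holds log2 probe-set signals; per the submitters' processing notes the authors used GCOS and RMA, whose versions are not given in the sources used here, and the log2 scale was read from the values. RMA equalises the arrays' distributions, so a shift shared by most genes would be lost. Of 22277 probe sets, 62 controls were left out. Among 22215 tested, the annotation gave 19064 a single gene, 1043 several and 2108 none, and 19052 were matched to RefSeq by gene ID.

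The fit used lmFit and trended eBayes of limma 3.58.1 (R 4.3.3; statmod 1.5.0). Clone was a random block, for which duplicateCorrelation gave a consensus correlation of -0.068. A negative value narrows the standard error of a condition difference, so this block gave no allowance for arrays that share a clone. It called 657 probe sets, against 489 without the clone block. The main fit held no term for the replicate number, and with that term the correlation was 0.235. P-values were two-sided and adjusted by Benjamini-Hochberg over all 22215 probe sets, at a threshold of 0.05. Clones were compared with 1 mean per clone and no term for the replicate number, although arrays sharing a number moved together. The fits were checked on simulated data with independent noise on each array. For the knockdown test those data held no clone effect and no replicate effect. They could therefore not check the p-values for arrays that share a clone or a replicate number.

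The members and lists were chosen with earlier results of these data known. Array values are printed for members called, members differing by 1 or more, and the brightest and smallest-p member of each role group. SEMA3A, SEMA7A, EFNA4, PLXNA2 and the probe set of NRP1 were added after their values were seen.

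Replicate numbers come from the sample titles. Arrays sharing a number deviated from the means of their clones together, with positive correlations in all 6 pairs of clones, from 0.42 (H and M) to 0.78 (B and G), a hint from the data that the numbers pair the arrays. Alternatives were clone means, no clone block, the replicate block, quantile normalization, median centring, a filter on dim probe sets, other choices of probe set, eBayes without a trend, and leaving out each array or clone. Differences within each replicate number were added after the data were seen.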

Additional observations from a re-analysis of the deposited data

Results flagged for a closer look

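In 8 of 120 groups of 4 arrays, 1 array stood apart from the other 3 by more than Dixon's critical value for a gap over the range, which chance exceeds in about 1 group in 20. The array of scramble clone H numbered 1 read 9.08 for SEMA4G, against at most 8.71 on the other scramble arrays, and 4.71 for EPHA3, against at least 4.83. Array H2 read 7.07 for EPHA5, where the others reached 6.88. Array M1 read 5.42 for EFNA2, 10.30 for EFNB3, the lowest of its group, and 5.96 for NTN3. Array M2 read 8.08 for NRP2, where the others reached 7.65. Among the knockdown arrays, G2 read 4.22 for EPHA7, with the others at 3.90 to 3.94. SEMA5A had a knockdown difference of -0.14 in replicate 1 and 0.20 in replicate 2, with opposite directions in every array. The limma test of that change did not pass (adjusted p = 0.56).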

How the results depend on the processing

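Of the 11 members named by the rule, every direction was kept under every alternative run except for FLRT1. Its difference was -0.15 within replicate 2 alone. In the fits with clone means, other blocks, the filter or no trend, the difference itself cannot change, so they do not test direction. The probe set with the smallest p was also the brightest for all but EPHB4. Some of the 11 were named for their size or p in these same data. The filter keeps a probe set bright in either condition, and PLXNC1 and FLRT3 reached its limit only by their knockdown means. The count of members called higher, 3, was 0 with clone means, 0 within replicate 1 alone, 0 within replicate 2 alone, 0 without clone B, 0 without clone G and 9 without clone H; leaving out 1 array gave 1 to 4, the 1 without B1, B2 or G2. The count called lower, 0, was 1 with the filter on dim probe sets, 2 with the replicate block with or without the clone block, 22 without clone H and 4 without clone M; leaving out 1 array gave 0 to 6, with 1 without H1 and 6 without H2. Over all probe sets, 657 calls became 1 with clone means, 1568 with the replicate block and no clone block, 18 and 1 within replicates 1 and 2, 13 without B, 22 without G, 8685 without H and 2117 without M; leaving out 1 array gave 69 to 3751. The clone correlation was -0.068 with all arrays, -0.585 without clone H, -0.543 without clone M and -0.352 without H2. The fit with clone and replicate blocks called 744. The count between clones H and M, 1, was 0 with the filter. Quantile normalization, median centring, the probe set with the smallest p and eBayes without a trend changed no call among the 11. The arrays number 8, from 4 clones, which limits the precision of every value.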
